A study of Mus musculus with 6 samples.

Results

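The 10 genes described here encode the cytoplasmic machinery that destroys β-catenin and the nuclear proteins that β-catenin works with: Apc, Axin1, Gsk3a, Gsk3b, Csnk1a1, Btrc, Bcl9, Bcl9l, Tcf7l1 and Tcf7l2. They were chosen by symbol, as the rows of the gene count table whose Ensembl identifiers carry those symbols, with earlier results of these data known. All 10 were among the 20409 features of the table, and 9 of them passed the filter on low counts among 13346 tested genes in all. Tcf7l1 was left out by that filter.

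Total polyadenylated RNA of villus epithelium from the mouse duodenum was sequenced in 6 mice, to ask what changes when Smad4 is lost and β-catenin is stabilized. The 3 double mutant mice carried Smad4 fl/fl, Ctnnb exon3 fl/wt and the Villin-CreERT2 transgene on a C57BL6-enriched background. They received tamoxifen into the peritoneum 4 times, at 0.05 g/kg on consecutive days, and were analysed 7 days after induction. The 3 wild-type mice were littermates that received no injection, so the mutations and tamoxifen itself cannot be told apart in this comparison, and the alleles the littermates carried were not given in the sources used here. Each group held 2 females and 1 male, mouse 1 being the male in both. Ages were not given beyond being matched. The Villin promoter drives Cre in epithelial cells along the whole intestine, so that crypts and villi both recombine and the mesenchyme does not.

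In cells without a Wnt signal, the scaffolds Axin and Apc hold β-catenin while casein kinase 1α, encoded by Csnk1a1, and then the GSK3 kinases phosphorylate its amino-terminal end. The F-box protein β-TrCP, encoded by Btrc, reads those phosphates and marks β-catenin for the proteasome. When β-catenin escapes, it enters the nucleus, binds TCF/LEF factors on DNA and recruits coactivators through Bcl9 or Bcl9l. In the intestine this pathway maintains the crypt stem cells, and loss of Apc starts most colorectal tumors.

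The sequence that the destruction complex reads lies in the exon that the double mutant removes from 1 allele of Ctnnb1, and is shown because the kinases and the ubiquitin ligase among the 10 genes act on it. Codons 30 to 48 of Ctnnb1 lie in exon 3, at chr9:120859714-120859770 of mm9 on the plus strand. The capitals mark, in order, codon 33 (serine), codon 37 (serine), codon 41 (threonine) and codon 45 (serine). Csnk1a1 phosphorylates serine 45, and GSK3 then phosphorylates the other marked residues.
Ctnnb1 codons: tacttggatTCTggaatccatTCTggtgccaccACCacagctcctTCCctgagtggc

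Promoters were available for 5 of the 10 genes in the RefSeq table of GRCm38.p6, and those of the 3 genes that passed the test are shown. Each spans 250 bases before to 50 bases after the annotated start and is printed on the strand of the gene. The capitals mark CTTTGA, the core bound by TCF/LEF factors, found here on the opposite strand and therefore read as TCAAAG. The Gsk3a promoter lies at chr7:25237802-25238101 (minus strand), that of Gsk3b at chr16:38088751-38089050 (plus strand) and that of Bcl9 at chr3:97227315-97227614 (minus strand).
Gsk3a: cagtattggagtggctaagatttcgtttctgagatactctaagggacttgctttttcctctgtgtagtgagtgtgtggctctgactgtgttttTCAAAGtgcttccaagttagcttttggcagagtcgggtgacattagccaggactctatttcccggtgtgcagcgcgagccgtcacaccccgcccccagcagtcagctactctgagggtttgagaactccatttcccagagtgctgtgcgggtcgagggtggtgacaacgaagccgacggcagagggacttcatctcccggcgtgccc
Gsk3b: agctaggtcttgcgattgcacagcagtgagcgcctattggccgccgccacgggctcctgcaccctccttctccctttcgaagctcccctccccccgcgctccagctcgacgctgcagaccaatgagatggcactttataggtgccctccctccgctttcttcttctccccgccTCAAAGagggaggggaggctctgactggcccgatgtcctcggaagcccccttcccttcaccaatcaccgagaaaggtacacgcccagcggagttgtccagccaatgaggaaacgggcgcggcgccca
Bcl9: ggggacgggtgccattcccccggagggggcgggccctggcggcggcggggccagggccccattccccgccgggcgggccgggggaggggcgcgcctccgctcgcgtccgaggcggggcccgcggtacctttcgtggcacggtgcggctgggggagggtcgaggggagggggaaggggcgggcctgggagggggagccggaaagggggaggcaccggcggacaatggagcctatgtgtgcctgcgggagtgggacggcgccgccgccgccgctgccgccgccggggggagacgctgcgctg
The core occurred on either strand in 16.0% of all 32851 promoters in the table. Among the 5 matched genes it was found in Gsk3a, where it began at position -157 from the start, and in Gsk3b, where it began at position -77. The windows of Bcl9, Tcf7l1 and Tcf7l2 did not hold these letters. The palindrome GTCTAGAC, which SMAD proteins can bind, was in 0.213% of all promoters and in none of the 5 genes. A match is only a description of the letters in the window.

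Values below are normalized counts, scaled to the TMM-adjusted library size (CPM), given for mouse 1, 2 and 3 of each group. A gene was called when its edgeR quasi-likelihood p, adjusted by Benjamini-Hochberg over the 13346 tested genes, was under 0.05. Totals ran from 19678507 to 26337318 counts per mouse, and 3 counts, taken as the limit of detection, corresponded to 0.125 to 0.163 CPM. Smad4 fell from 148 ± 30.3 CPM (SD, n = 3) to 31.7 ± 5.40 CPM (SD, n = 3), a log2 change of -2.22 (SE 0.187, edgeR adjusted p = 0.000145), in the direction of the labels. Ctnnb1 averaged 932 ± 53.6 CPM in the wild-type mice, while the double mutants averaged 841 ± 79.7 CPM (log2 change -0.15, edgeR adjusted p = 0.359), but gene-level counts do not show the loss of 1 exon from 1 allele. Wild-type mouse 1 stood apart: its summed goblet markers reached 125 CPM against up to 11616 CPM in the other wild-type mice and 4669 to 5064 CPM in the double mutants, and its summed Paneth markers 7.91 CPM against up to 1500 CPM. All calls among the 10 genes are therefore also given without it. The epithelial label held, but low mesenchymal counts were present and were higher in some double mutants. The 8 epithelial markers summed to 13284 to 13535 CPM in the wild-type mice, with 10034 to 11243 CPM in the double mutants. The 7 mesenchymal markers in the table summed to 1.46 to 3.03 and 3.04 to 6.76 CPM. Of these, the collagen genes Col1a1, Col1a2 and Col3a1 had at most 8 counts in any mouse and Pdgfra at most 1. Vim had 35 to 55 counts in wild-type and 59 to 81 in double mutant mice. Acta2 had 0, 0 and 3 counts in wild-type mice and 40, 8 and 0 in double mutants. Des had 0, 0 and 2 counts in wild-type mice and 35, 1 and 2 in double mutants.

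Of the 9 tested genes, Bcl9 rose and Gsk3a, Gsk3b and Csnk1a1 fell in double mutant villi. Bcl9 increased 3.01-fold, whereas Gsk3a fell by 35.2%, Gsk3b fell by 28.7% and Csnk1a1 fell by 24.4%. Apc, Axin1, Btrc, Bcl9l and Tcf7l2 did not pass the test. The 4 calls make 44.4% of the tested genes of the machinery, beside 36.8% of all tested genes (19.7% called higher and 17.0% called lower), so the number of calls is close to the background. Only 1 gene of the 9 was called lower, rather than 3, when double mutant mouse 2 or 3 or wild-type mouse 2 or 3 was left out, and likewise with the replicate number as a block or with scaling by library totals alone. Where a log2 change of at least 1 was also required, which 10.9% of all tested genes met upward and 6.23% downward, Bcl9 was the only call among the 9 genes. The median log2 change was -0.20 over the 9 genes and 0.02 over all tested genes. The groups of mice did not overlap for 5 of the 9 genes, against 52.4% of all tested genes. In bulk tissue, fewer cells that express a gene and less of its RNA per cell cannot be told apart.

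**Figure D1:**
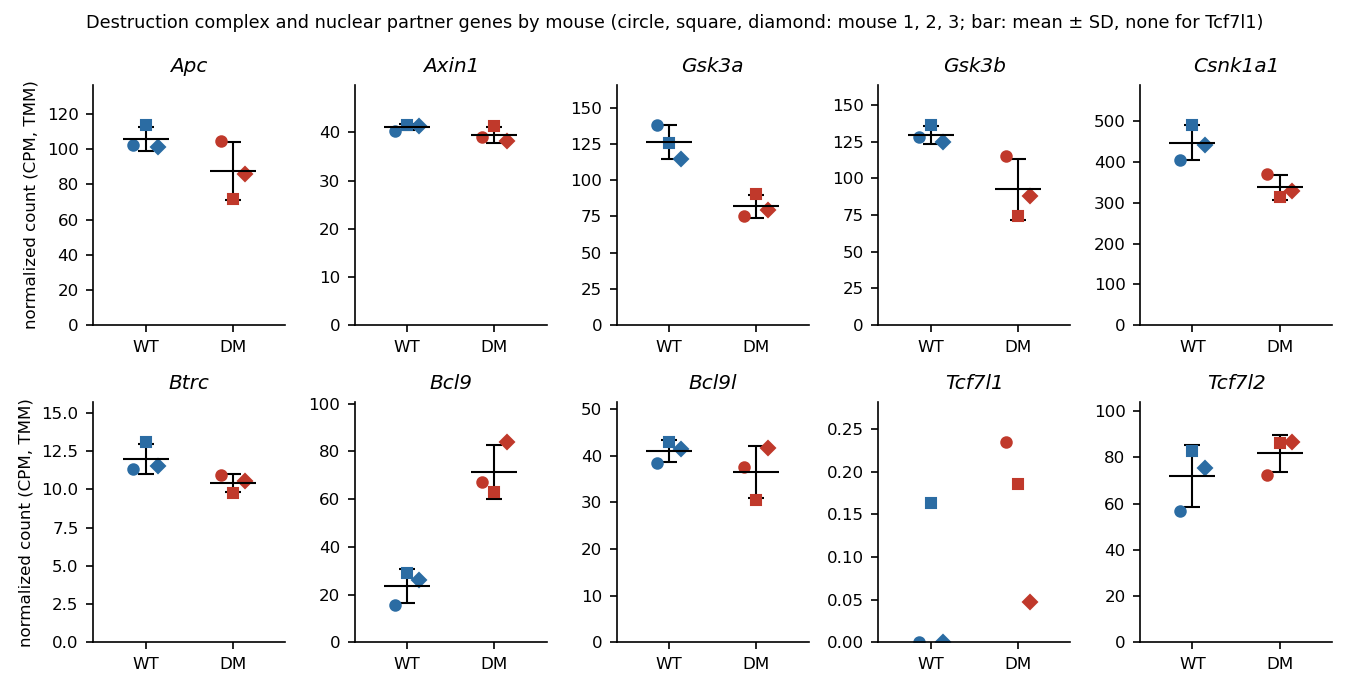
Normalized counts (CPM after TMM scaling, y axis from 0, a scale of its own for each gene) of the 10 genes in the 3 wild-type (WT, blue) and 3 double mutant (DM, red) mice; symbols mark mouse 1 (circle), 2 (square) and 3 (diamond), and bars give the mean ± SD except for Tcf7l1. The double mutants sit above every wild-type mouse for Bcl9 and below every wild-type mouse for Gsk3a, Gsk3b, Csnk1a1 and Btrc.

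Neither of the scaffold genes passed the test. Apc (ENSMUSG00000005871, chromosome 18) encodes the large scaffold and tumor suppressor whose loss releases β-catenin. Its level was 102, 114 and 101 CPM in the wild-type mice and 105, 71.9 and 86.1 CPM in the double mutants. Double mutant mouse 1 lay within the wild-type range and the other 2 below it, so the groups overlapped. The means were 106 ± 7.04 CPM and 87.6 ± 16.4 CPM (SD, n = 3 each), with a log2 change of -0.27 (SE 0.147, 95% interval -0.61 to 0.06, edgeR adjusted p = 0.179). Apc was called only when double mutant mouse 1 was left out, at a log2 change of -0.41 (edgeR adjusted p = 0.0446).

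Axin1 (ENSMUSG00000024182, chr17:26275631-26332756, plus strand, mm9) encodes the scaffold that limits assembly of the complex in many cells. It was measured at 40.4, 41.6 and 41.2 CPM in wild-type and at 39.0, 41.2 and 38.2 CPM in double mutant mice. All 6 mice lay within a narrow band and the groups overlapped. The log2 change was -0.06 (SE 0.104, 95% interval -0.29 to 0.18, edgeR adjusted p = 0.693), so that a fall of more than 0.29 on the log2 scale lay outside the interval. Axin1 had the tightest estimate of the 9 genes.

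Among the kinases, Gsk3a (ENSMUSG00000057177, chr7:26013277-26022870, minus strand, mm9) encodes GSK3α. Its level was 138, 126 and 115 CPM in wild-type mice and 75.4, 90.7 and 79.6 CPM in the double mutants. Every double mutant was below every wild-type mouse, with a gap of more than 20 CPM between the groups. The mean went from 126 ± 11.7 CPM to 81.9 ± 7.91 CPM, a log2 change of -0.63 (SE 0.121, 95% interval -0.90 to -0.35, edgeR adjusted p = 0.00471). The 14 alternative fits used another tool, scaling or filter, a block or covariate, or 1 mouse fewer, at the same threshold and with no minimum fold. Gsk3a was called in all 14 alternative fits, with log2 changes from -0.71 to -0.43, and at -0.56 without wild-type mouse 1 (edgeR adjusted p = 0.00774). It shares 436 exonic bases with 9130221H12Rik on the opposite strand, whose highest count in any mouse was 92.

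Gsk3b (ENSMUSG00000022812, chr16:38089087-38246170, plus strand, mm9) encodes GSK3β, the kinase closest to GSK3α in sequence and, in the destruction complex, exchangeable with it. It was at 128, 137 and 124 CPM in wild-type mice and at 115, 74.3 and 88.1 CPM in the double mutants. The groups did not overlap, but double mutant mouse 1 came close to the lowest wild-type mouse and the double mutants were spread more widely. The mean went from 129.7 ± 6.19 CPM to 92.4 ± 20.7 CPM, a log2 change of -0.49 (SE 0.159, 95% interval -0.85 to -0.13, edgeR adjusted p = 0.0408). The call was lost on leaving out double mutant mouse 2 (edgeR adjusted p = 0.107), double mutant mouse 3 (0.127), wild-type mouse 2 (0.113) or wild-type mouse 3 (0.0761), and kept without wild-type mouse 1 (-0.50, edgeR adjusted p = 0.0475). It was also lost with the replicate number as a block (edgeR adjusted p = 0.0606) and with scaling by library totals alone (0.193).

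Csnk1a1 (ENSMUSG00000024576, chromosome 18) encodes casein kinase 1α, which places the priming phosphate on β-catenin. Its level was 406, 492 and 443 CPM in wild-type mice and 371, 313 and 330 CPM in the double mutants. The groups did not overlap, and mouse 1 was again the double mutant nearest to wild-type. The mean went from 447 ± 43.0 CPM to 338 ± 29.8 CPM, a log2 change of -0.40 (SE 0.121, 95% interval -0.68 to -0.13, edgeR adjusted p = 0.0299). Like Gsk3b, it was no longer called without double mutant mouse 2 (edgeR adjusted p = 0.0966), double mutant mouse 3 (0.102), wild-type mouse 2 (0.104) or wild-type mouse 3 (0.0675), and it was called without wild-type mouse 1 (-0.47, edgeR adjusted p = 0.0160). The call was also lost with the replicate number as a block (edgeR adjusted p = 0.0863) and with scaling by library totals alone (0.220).

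Btrc (ENSMUSG00000025217, chr19:45438224-45607831, plus strand, mm9) encodes β-TrCP1, the substrate receptor of the ubiquitin ligase. It was measured at 11.3, 13.1 and 11.5 CPM in wild-type mice and at 10.9, 9.79 and 10.5 CPM in the double mutants. Every double mutant was below every wild-type mouse, yet the gap between the groups was under 1 CPM. The log2 change was -0.20 (SE 0.152, 95% interval -0.55 to 0.14, edgeR adjusted p = 0.330), and Btrc was not called in any alternative fit.

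Of the nuclear partners, Bcl9 (ENSMUSG00000038256, chr3:97007585-97032769, minus strand, mm9) encodes the adaptor that ties β-catenin to Pygo proteins and transcription. Its level was 15.7, 29.0 and 26.3 CPM in wild-type mice and 67.1, 62.8 and 84.0 CPM in the double mutants. The lowest double mutant lay more than 30 CPM above the highest wild-type mouse. The mean went from 23.7 ± 7.03 CPM to 71.3 ± 11.2 CPM (SD, n = 3 each), a log2 change of 1.59 (SE 0.231, 95% interval 1.06 to 2.12, edgeR adjusted p = 0.00149). Bcl9 was called in all 14 alternative fits, with log2 changes from 1.36 to 1.78. Wild-type mouse 1 had the lowest value, and without it the log2 change was 1.36 (edgeR adjusted p = 0.000231).

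Bcl9l (ENSMUSG00000063382, chr9:44307219-44318471, plus strand, mm9) encodes the paralog of Bcl9 with the same adaptor role. It was at 38.4, 42.9 and 41.4 CPM in wild-type mice and at 37.5, 30.4 and 41.5 CPM in the double mutants. The groups overlapped, and only double mutant mouse 2 stood clearly below the wild-type range. The log2 change was -0.17 (SE 0.139, 95% interval -0.48 to 0.15, edgeR adjusted p = 0.380), and it was -0.052 without double mutant mouse 2 and -0.27 without double mutant mouse 3.

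Tcf7l2 (ENSMUSG00000024985, chr19:55816300-56008144, plus strand, mm9) encodes TCF4, the main TCF factor of the intestinal epithelium. Its level was 56.9, 82.9 and 75.5 CPM in wild-type mice and 72.5, 86.1 and 86.7 CPM in the double mutants. The groups overlapped, and the lowest value belonged to wild-type mouse 1. The log2 change was 0.19 (SE 0.155, 95% interval -0.17 to 0.54, edgeR adjusted p = 0.373), and it was 0.05 without wild-type mouse 1 (edgeR adjusted p = 0.813).

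Tcf7l1 (ENSMUSG00000055799, chr6:72576372-72739248, minus strand, mm9) encodes TCF3, a TCF factor known mostly as a repressor. It had 0, 3 and 0 counts in the wild-type mice and 5, 4 and 1 counts in the double mutants. These counts are at or near the limit of detection, so no fold change is given. Tcf7l1 also shares 179 exonic bases with Gm15401 on the opposite strand, whose highest count was 17.

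**Figure D2:**
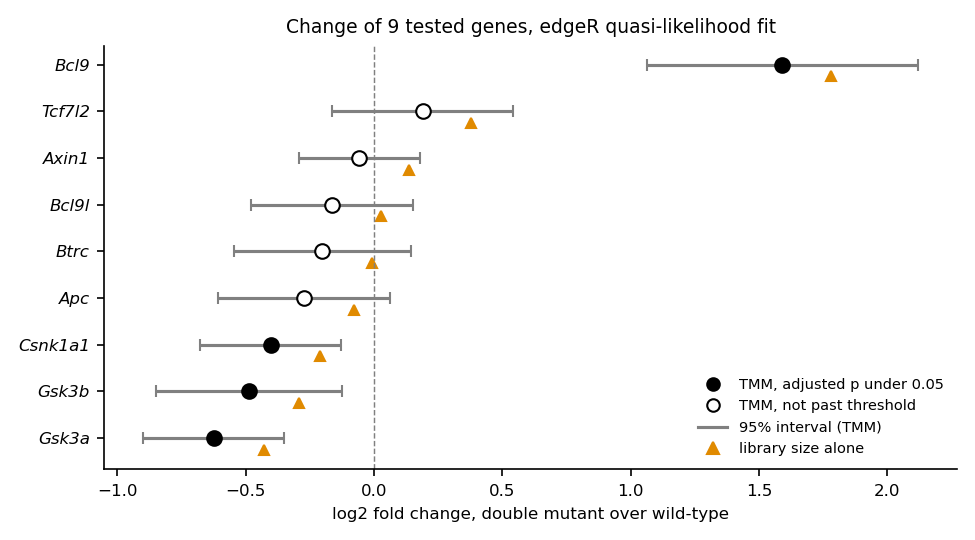
Log2 fold change of double mutant over wild-type villi (x axis) for the 9 tested genes, with 95% intervals from the edgeR fit (filled circles, adjusted p under 0.05) and the estimate when libraries were scaled by their totals alone (triangles). Bcl9 lies at 1.59 and the 3 kinase genes between -0.63 and -0.40, and scaling by totals moves every gene to the right.

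Scaling mattered for the small changes. When libraries were scaled by their totals alone, the median log2 change of all genes moved by 0.19, from 0.02 to 0.22. Under that scaling Gsk3a remained lower (-0.43, edgeR adjusted p = 0.0166) and Bcl9 higher (1.78, edgeR adjusted p = 0.00106). Gsk3b was then at -0.29 (edgeR adjusted p = 0.193) and Csnk1a1 at -0.21 (edgeR adjusted p = 0.220). Axin1 and Bcl9l, neither of them called, turned to 0.13 and 0.027. Relative to the median of all genes, the values under TMM and under library totals were the same to within 0.01 on the log2 scale, for example -0.51 for Gsk3b under each. A change of scaling shifts all genes by nearly the same amount, so this agreement follows from the calculation and adds no evidence for the falls.

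Levels were also compared between genes after division by the length of their annotated exons, as CPM per kb. In wild-type villi the order was Gsk3a (55.9 ± 5.17), Csnk1a1 (42.6 ± 4.09), Gsk3b (13.2 ± 0.630), Axin1 (10.7 ± 0.168), Tcf7l2 (8.21 ± 1.53), Bcl9l (7.72 ± 0.434), Apc (6.72 ± 0.447), Bcl9 (2.86 ± 0.848), Btrc (1.90 ± 0.154) and Tcf7l1. The ranges of neighbours overlapped only for Tcf7l2 with Bcl9l and for Bcl9 with Btrc. In double mutant villi Bcl9 reached 8.61 ± 1.35 CPM per kb, and every neighbouring pair from Axin1 (10.3 ± 0.416) through Gsk3b, Tcf7l2, Bcl9 and Bcl9l to Apc (5.56 ± 1.04) overlapped. Gsk3a (36.2 ± 3.50) and Csnk1a1 (32.2 ± 2.84) stayed above these genes and overlapped with each other. The order depends on the length used, since Gsk3b and Csnk1a1 have long untranslated regions: per kb of coding sequence, wild-type Csnk1a1 was at 356, Gsk3b at 99.8 and Gsk3a at 85.9 CPM.

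Related genes were then compared within each mouse, as log2 ratios of counts per exon kb that do not depend on scaling between libraries. They were tested by exact two-sided permutation, whose smallest p for 3 mice a group is 0.1, and the p-values were adjusted over the 4 ratios tested. The ratio of Bcl9l to Bcl9 was 1.93, 1.21 and 1.30 in the wild-type mice and -0.20, -0.40 and -0.37 in the double mutants. Bcl9l thus exceeded Bcl9 per kb in every wild-type mouse, with a mean linear ratio of 2.86 ± 0.827 (SD, n = 3), and was below it in every double mutant, with a mean linear ratio of 0.800 ± 0.0625. The difference was -1.80 (exact permutation p = 0.1, adjusted 0.2), and -1.58 without wild-type mouse 1. Unlike this difference, the linear ratios depend on the length used. Per kb of coding sequence, mean Bcl9l and Bcl9 were at 9.13 and 5.55 CPM in wild-type mice and at 8.14 and 16.7 CPM in double mutants.

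The ratio of Gsk3b to Gsk3a was -2.23, -2.004 and -2.005 in wild-type and -1.51, -2.41 and -1.98 in double mutant mice. Double mutant mice 1 and 2 lay on opposite sides of the wild-type range. The difference was 0.11 (exact permutation p = 0.7, adjusted 0.7) and became -0.11 without double mutant mouse 1, so no shift between the GSK3 genes was detectable.

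Btrc was compared with Fbxw11, which encodes β-TrCP2 and was the more abundant per exon kb in every mouse. The ratio was -3.57, -3.66 and -3.74 in wild-type and -3.45, -3.29 and -3.36 in double mutant mice. The groups did not overlap, with a difference of 0.29 (exact permutation p = 0.1, adjusted 0.2). The ratio of Axin2, an Axin paralog and itself a β-catenin target, to Axin1 was -1.54, -0.50 and -0.96 in wild-type and -0.54, -0.65 and -0.40 in double mutant mice. Those groups overlapped and the wild-type mice spread widely (difference 0.47, exact permutation p = 0.3, adjusted 0.4). The difference was 0.20 without wild-type mouse 1 and 0.72 without wild-type mouse 2. The ratio of Tcf7l2 to Tcf7l1 was not computed because Tcf7l1 had no counts in 2 wild-type mice.

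**Figure D3:**
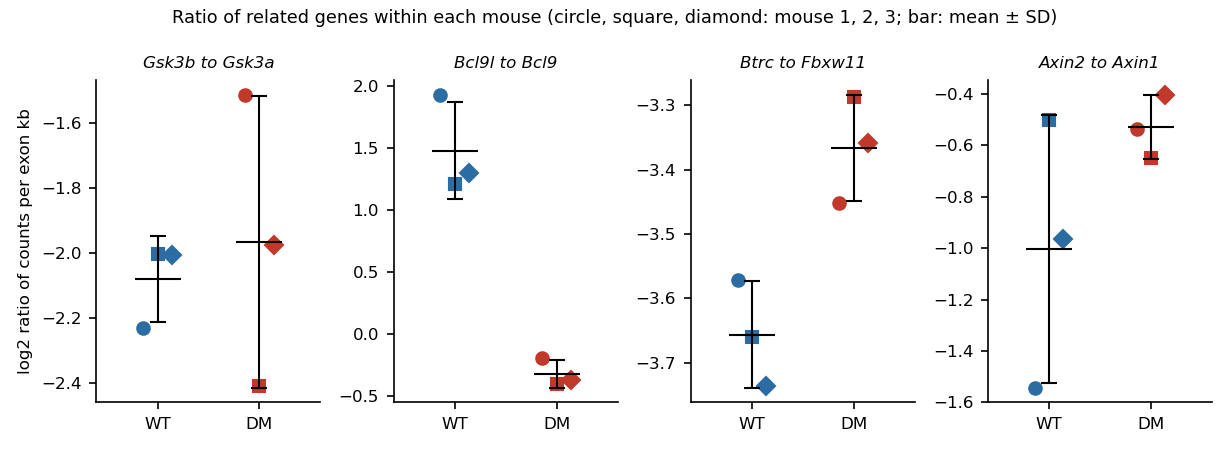
Log2 ratio of counts per exon kb between related genes (y axis, a range of its own in each panel that need not include 0) in each wild-type (WT) and double mutant (DM) mouse, with mean ± SD. Bcl9l to Bcl9 goes from above 0 in the 3 wild-type mice to below 0 in the 3 double mutants, while the wild-type and double mutant ratios of Gsk3b to Gsk3a and of Axin2 to Axin1 overlap.

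The changes of the 10 genes were set beside 4 lists of other genes of the pathway. Together these lists held 58 tested genes, of which 9 were called higher and 10 lower (32.8% called, against 36.8% of all tested genes). Among 20 other destruction complex and scaffold genes, 1 rose (5%) and 5 fell (25%), beside 19.7% and 17.0% of all tested genes, with a median log2 change of -0.17. With scaling by library totals alone, 3 of these genes were called higher and 3 lower. Leaving out each mouse gave 1 to 2 called higher and 4 to 6 lower. The largest falls were those of the GSK3-binding proteins Frat2, from 45.5 ± 1.58 to 16.6 ± 4.08 CPM (log2 change -1.45, edgeR adjusted p = 0.000577), and Frat1 (-1.38, edgeR adjusted p = 0.00124). The phosphatase 2A subunit genes Ppp2r5d (-0.86, edgeR adjusted p = 0.00265) and Ppp2r1b (0.92, edgeR adjusted p = 0.00416) moved in opposite directions. Dvl1 encodes a Dishevelled protein, which carries the Wnt signal to the complex, and fell by 0.57 on the log2 scale (edgeR adjusted p = 0.0154). It was not called when libraries were scaled by their totals alone (-0.38, edgeR adjusted p = 0.0537). Axin2 was at 19.9, 42.3 and 30.4 CPM in wild-type and 38.6, 37.8 and 41.5 CPM in double mutant mice, overlapping groups that did not pass the test (log2 change 0.35, edgeR adjusted p = 0.288). Its value rested on single wild-type mice, being 0.11 without mouse 1 (edgeR adjusted p = 0.612) and 0.64 without mouse 2, where it was called (edgeR adjusted p = 0.0449).

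Among 13 ubiquitin ligase and tankyrase genes, 2 rose (15.4%) and 3 fell (23.1%), beside 19.7% and 17.0% of all tested genes, with a median of -0.11. The count of falls rested on single mice, being 0 without double mutant mouse 3, 1 without wild-type mouse 2, 2 without double mutant mouse 2 or wild-type mouse 1 and 4 without double mutant mouse 1, and it was 0 when libraries were scaled by their totals alone. Skp1a, whose protein bridges the F-box protein to the ligase, rose (log2 change 0.52, edgeR adjusted p = 0.00376). Fbxw11 fell from 104 ± 10.7 to 73.8 ± 8.26 CPM (-0.49, edgeR adjusted p = 0.0178). The paralogs Siah1a (-0.60, edgeR adjusted p = 0.0182) and Siah1b (0.88, edgeR adjusted p = 0.0354) moved in opposite directions, but their reads can be shared between near-identical copies. Tnks, the tankyrase that marks Axin for degradation, fell (-0.91, edgeR adjusted p = 0.0328). Of these, Skp1a was called in all 14 alternative fits, Siah1a in 12, Tnks in 9, Fbxw11 in 8 and Siah1b in 6. Scaling by totals alone ended the calls of Siah1a, Tnks and Fbxw11, at log2 changes of -0.40, -0.71 and -0.30.

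Among 11 other TCF/LEF factors and coactivators, 4 rose (36.4%) and none fell, beside 19.7% and 17.0% of all tested genes, with a median of -0.02. Without double mutant mouse 1, 2 genes of this list were called lower. Tcf7, which encodes TCF1, rose from 1.28 ± 0.428 to 6.62 ± 0.606 CPM (log2 change 2.38, edgeR adjusted p = 0.000753), and by 2.14 without wild-type mouse 1 (edgeR adjusted p = 0.000291). The helicase genes Ruvbl1 (1.96, edgeR adjusted p = 0.00355) and Ruvbl2 (1.17, edgeR adjusted p = 0.00103) and the chromatin remodeler Smarca4 (0.35, edgeR adjusted p = 0.0218, called in 10 of 14 alternative fits) were also higher. Lef1 had at most 4 counts in any mouse and was not tested.

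Among 14 corepressor and antagonist genes, 2 rose and 2 fell (14.3% each), beside 19.7% and 17.0% of all tested genes, with a median of 0.05. The Groucho corepressor gene Tle3, whose protein holds TCF targets silent, fell from 146 ± 33.4 to 46.2 ± 9.15 CPM (log2 change -1.66, edgeR adjusted p = 0.000635). Ctnnbip1, which encodes an inhibitor that keeps β-catenin from TCF factors, fell as well (-0.69, edgeR adjusted p = 0.00388). Hdac2 (1.18, edgeR adjusted p = 0.000379) and Ctbp2 (0.50, edgeR adjusted p = 0.0174), both corepressors, rose. Hdac2 was called in all 14 alternative fits and Ctbp2 in 12, its call being lost without double mutant mouse 2 (edgeR adjusted p = 0.0505) or wild-type mouse 3 (edgeR adjusted p = 0.0659). Of 16 tested β-catenin target genes, Axin2 and Tcf7 among them, 10 were called higher (62.5%, beside 19.7% of all tested genes) and none lower (beside 17.0%), with a median log2 change of 1.57. Leaving out each mouse gave 7 to 12 target genes called higher and none lower.

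**Figure D4:**
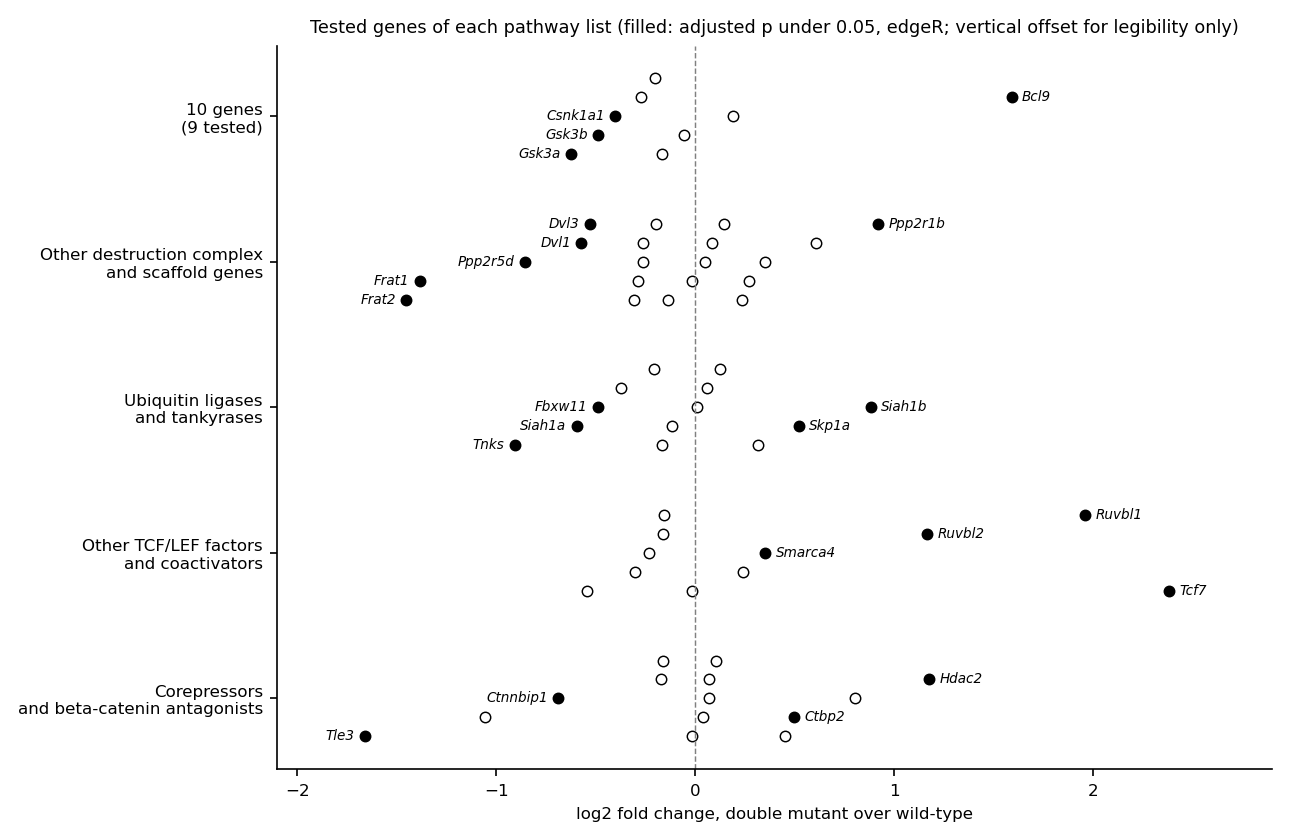
Log2 fold change of double mutant over wild-type villi (x axis) for every tested gene of the 10 and of the 4 pathway lists, filled where the edgeR adjusted p was under 0.05. Bcl9 (1.59), Tcf7 (2.38) and Ruvbl1 (1.96) lie furthest to the right, and Tle3 (-1.66), Frat2 (-1.45) and Frat1 (-1.38) furthest to the left.

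Markers of cell types moved with the comparison. The 6 proliferation markers summed to 65.4 to 87.9 CPM in wild-type and 172 to 213 CPM in double mutant mice (5 of 6 called higher), and the 6 crypt stem markers to 20.7 to 97.2 and 118 to 174 CPM (2 of 6 called higher). The 10 enterocyte markers summed to 48739 to 57848 CPM in wild-type and 28031 to 31163 CPM in double mutant mice, with 7 called lower and 1 higher. The 7 enteroendocrine markers summed to 224 to 311 and 96.4 to 106 CPM (5 called lower) and the 6 tuft markers to 83.9 to 113 and 11.9 to 13.6 CPM (5 called lower). The 6 Paneth markers summed to 7.91, 909 and 1500 CPM in wild-type mice 1, 2 and 3 and to 153 to 248 CPM in the double mutants, and the 8 goblet markers to 125, 11616 and 11039 CPM and to 4669 to 5064 CPM. No Paneth marker and 1 goblet marker, which was higher, passed the test. The 8 immune markers summed to 37.2 to 69.1 and 26.3 to 37.1 CPM (2 called lower). The part of these shifts in the rise of Bcl9 and the falls of Gsk3a, Gsk3b and Csnk1a1 was not tested.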

How the data were processed

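Villi of the duodenum were released by EDTA, retained on a filter and lysed in TRIzol, and polyadenylated RNA was sequenced from each of 6 mice. Per the study's methods, only an RNA integrity number above a low minimum was required. The authors aligned reads to mm9 with HISAT2 and deposited featureCounts gene counts, with 1 column per mouse, unnormalized and unpooled. The strand and multimapping settings were not given in the sources used here. Symbols and positions came from the GENCODE annotation of mm9, which named 20032 features. Another 336 were numbered transcripts outside the annotation.

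Later steps were run here in R 4.3.3. The filterByExpr filter by group left 13346 genes, which were scaled by TMM and tested with edgeR 4.0.16 (robust glmQLFit, glmQLFTest, Benjamini-Hochberg over all tested genes), 3 double mutant against 3 wild-type mice. The scripts were checked on simulated counts. Within-mouse ratios were tested by exact permutation with scipy 1.17.1. Groups came from the sample labels. Each library is a different mouse. Named were all 10 genes, Smad4, Ctnnb1, the paralogs in the ratios and, in each pathway list, up to 4 genes per direction with the smallest adjusted p among those called. β-catenin targets were counted only. The 10 genes and the lists were chosen with earlier results of these data known. Alternatives were DESeq2 1.42.0, limma-voom (limma 3.58.1), other scalings, filters, a replicate block, sex as a covariate and leaving out each mouse (14 fits), and, apart from these, a fold threshold and coding length.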

Additional observations from a re-analysis of the deposited data

How the results depend on the processing

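Bcl9 and Gsk3a kept their direction and their call in all 14 alternative fits. Scaling by library totals alone gave 1425 genes called lower and 3732 called higher, beside 2273 and 2632, with 1 of the 9 genes called lower, log2 changes of -0.29 for Gsk3b and -0.21 for Csnk1a1 (not called), 0.13 for Axin1, 0.027 for Bcl9l and 0.046 for Ctnnb1, and 15 higher and 5 lower genes in the 4 pathway lists. Requiring a log2 change of at least 1 left 1454 genes higher and 832 lower, 0 of the 9 genes lower, and 4 higher and 3 lower in the lists. Leaving out each mouse gave 1812 to 2783 genes higher and 1630 to 2361 lower, 1 to 4 of the 9 genes lower, 6 to 9 list genes higher and 7 to 14 lower. In the same fits Apc ran from -0.41 to -0.15, Gsk3b from -0.67 to -0.36, Csnk1a1 from -0.47 to -0.33 and the log2 ratio of Gsk3b to Gsk3a from -0.11 to 0.34. The cause was not tested.

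Whether the replicate numbers of the labels pair the mice was not settled. The deviations of same-numbered mice correlated at 0.02, -0.11 and 0.01, and not every mouse correlated best with its own number. These deviations were taken from the means of small groups, so the correlations depend on each other and cannot exclude a pairing. The numbers do match by sex, mouse 1 being the male in both groups. With the number as a block, 1 of the 9 genes was called lower, Gsk3b was at -0.51 (edgeR adjusted p = 0.0606) and Csnk1a1 at -0.40 (edgeR adjusted p = 0.0863), and 2084 genes were higher and 1750 lower. Tcf7l1 was left out of the main fit by the filter on low counts.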
